A study of Homo sapiens with 6 samples.

Results

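The genes described here encode the subunits of the proteasome and the dedicated proteins that activate, inhibit or assemble it, in PC-3 cells, a line from an androgen-independent human prostate carcinoma. Members were the genes whose symbol is PSMA, PSMB, PSMC, PSMD, PSME, PSMF or PSMG followed by digits alone, with the interferon-inducible catalytic subunits PSMB8 and PSMB9 left out. The rule found 43 genes among the 18404 genes with a single symbol on the array. PSMC5, PSMD7 and PSMD13 are not analysed here. Cells were grown in medium with 10% fetal bovine serum and received either menthol dissolved in ethanol or ethanol alone, at a working concentration of 0.1%, with 3 arrays per group and 300 ng of total RNA per array. Neither the menthol dose nor the length of exposure is stated in the labels. Nothing in the labels ties the replicates to separate cultures, so the p-values cover the spread of these arrays alone, and that spread may be technical.

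The proteasome degrades proteins that carry ubiquitin chains. Its core particle is a barrel of alpha subunits, which form the gate, and beta subunits, of which PSMB5, PSMB6 and PSMB7 carry the proteolytic sites. A regulatory particle sits on the barrel: its ATPases unfold the substrate, and its other subunits bind the ubiquitin chain and cut it off. Alternative activators, an inhibitor and a set of assembly chaperones complete the system. When proteolysis is impaired, the transcription factor NFE2L1 raises many subunit genes together through antioxidant response elements in their promoters.

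With menthol the proteasome genes moved little and in both directions. In limma, with Benjamini-Hochberg adjustment over all 18404 genes and a threshold of 0.05, 7 of the 43 members fell, 3 rose and 33 did not pass. Over all genes 29.1% passed, 14.5% lower and 14.6% higher. The share of members that fell (16.3%) was close to that of all genes, and the share that rose (6.98%) was below it. Of the members, 37 lay among the 4601 genes with the highest mean signal, called the brightest genes below, of which 44.1% passed, 26.9% lower and 17.2% higher. Of these 37 members 18.9% were lower and 5.41% higher, both below the shares of the brightest genes. None of the 43 members passed with a change of 1.5-fold or more, which 5.61% of all genes and 6.85% of the brightest genes did. The median log2 fold change, menthol minus vehicle, was -0.071 over the members, 0.03 over all genes and -0.05 over the brightest genes. The SD of the log2 fold changes was 0.18 over the members, 0.31 over all genes and 0.32 over the brightest genes. The log2 fold change was below 0 in 26 of 43 members (60.5%), in 44% of all genes and in 57.8% of the brightest. These counts and spreads are descriptions and were not tested against other genes.

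**Figure D1:**
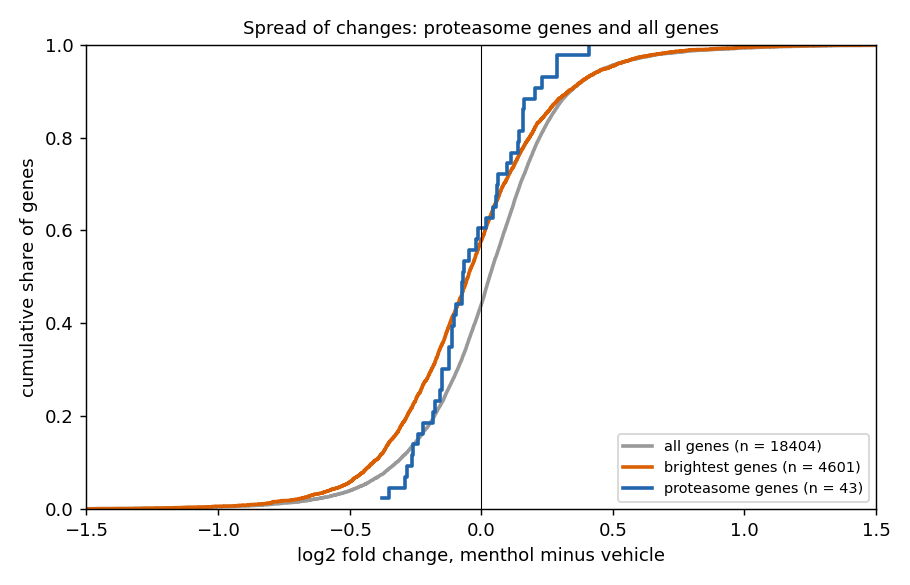
Cumulative share of genes (vertical axis) by log2 fold change, menthol minus vehicle (horizontal axis), for all 18404 genes, the 4601 brightest genes and the 43 proteasome genes. The curve of the proteasome genes is the steepest and runs from -0.38 to 0.41, with 26 of 43 members below 0. The axis is cut at 1.5 on both sides.

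The balance of these calls changed with some ways of scaling the arrays to each other and not with others. With the array medians set equal, 3 members were higher and 7 lower, and the member median was -0.091. Of all genes 12.7% were higher and 15.4% lower in that setting. With quantile normalization added to the deposited values, 9 of 43 members were higher and 3 lower, against 15.9% higher and 12.8% lower of all genes in that setting. With cyclic loess normalization 9 members were higher and 5 lower, against 14.8% and 13.4% of all genes. The higher genes thus made up 30% of the member calls as deposited, 75% after quantile and 64.3% after cyclic loess normalization, and the member median changed sign to 0.021 and 0.0076. The values of the members shifted upward by a median of 0.09 and 0.08 in these settings. The bright end of the deposited arrays moved with the groups: the 95th percentile of intensity lay between 1343 and 1376 units in the vehicle arrays and between 1238 and 1266 in the menthol arrays. Its part in the calls was not tested. Arrays also differed within groups, since 30 of 43 members had their highest vehicle value in vehicle replicate 3 and 25 had their highest menthol value in menthol replicate 3. On omission of single arrays, between 3 and 6 members fell and between 1 and 4 rose. Of all genes, 10.1% to 13.4% were lower and 10.6% to 13.1% higher in those settings, below the shares with all arrays.

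**Figure D2:**
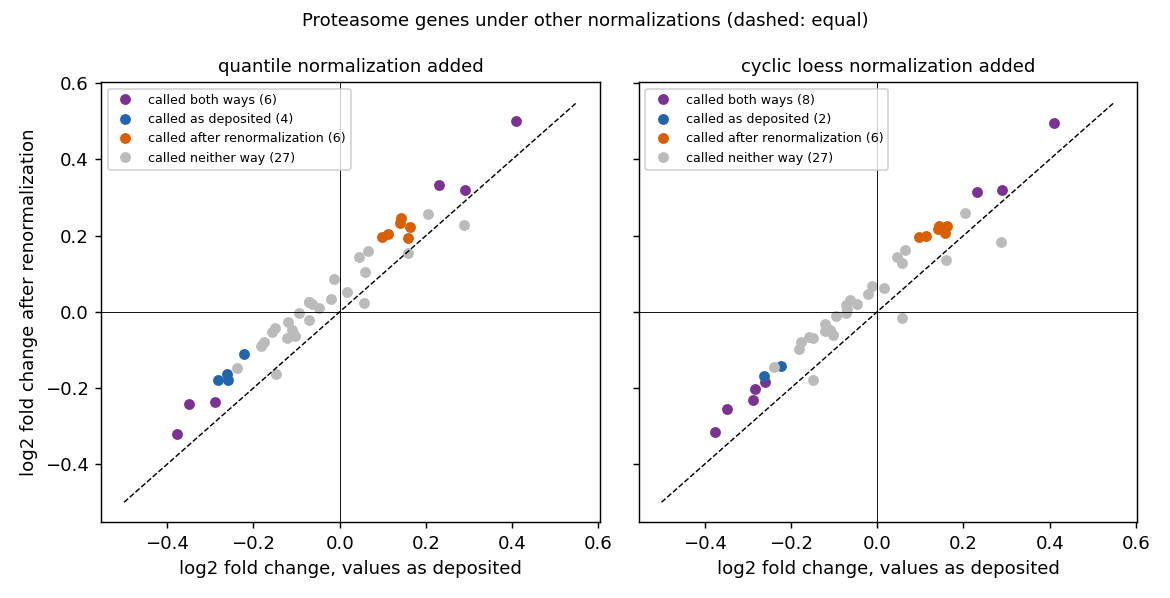
Log2 fold change of each of the 43 proteasome genes as deposited (horizontal axis) and after a further normalization (vertical axis), quantile on the left and cyclic loess on the right. Most points lie above the dashed line of equality. 6 calls were shared between the deposited and quantile-normalized values and 8 between the deposited and loess-normalized values.

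The calls on PSMC2, PSMA4 and PSME1 were the 3 of 10 that held under each of the 17 alternatives run. PSMC2 (Entrez 5701), an ATPase of the regulatory particle, had log2 intensities of 10.59, 10.58 and 10.55 with vehicle and of 11.03, 10.94 and 10.99 with menthol. All its menthol values lay above all its vehicle values, and it rose by 0.41 ± 0.06 (SE, n = 3 per group), or 1.33-fold (limma adjusted p = 0.00201), the largest increase among the members. PSMA4 (Entrez 5685), an alpha subunit of the core, was at 11.37, 11.42 and 11.48 with vehicle and at 11.03, 11.02 and 11.19 with menthol. The groups did not overlap, and it fell by 0.35 ± 0.07, or 1.27-fold (limma adjusted p = 0.00899). PSME1 (Entrez 5720), a subunit of the activator that caps the core in place of the regulatory particle, was at 9.02, 9.11 and 9.11 with vehicle and at 8.74, 8.65 and 8.71 with menthol. It fell by 0.38 ± 0.06, or 1.30-fold (limma adjusted p = 0.00363), the largest decrease among the members, with all menthol arrays below all vehicle arrays.

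PSME1 acts in a mixed ring with PSME2, whose gene lies beside it on chromosome 14, and the values of the pair differed in sign. PSME2 was at 8.55, 8.43 and 8.75 with vehicle and at 8.83, 8.79 and 8.72 with menthol, so its groups overlapped, and its log2 fold change of 0.20 ± 0.09 did not pass (limma adjusted p = 0.131, 95% interval -0.0058 to 0.41). The log2 difference of PSME2 minus PSME1 within an array does not depend on the scaling between arrays by a constant. It was -0.46, -0.68 and -0.36 on the vehicle arrays and 0.10, 0.13 and 0.0087 on the menthol arrays. The level of such a difference has no meaning, since probes differ in brightness, but its change of 0.58 had no overlap between the groups (two-sided exact permutation p = 0.1, the smallest that 3 against 3 arrays allow). It was one of 5 within-array differences computed on genes chosen for their values, and each gave this smallest p, so they are descriptions and no independent test. PSME2 has 6 pseudogenes of its name in RefSeq, and signal from such copies cannot be told apart here, as no probe sequences were used.

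The sequences of the 250 bases upstream of the annotated start were read for these 4 genes to show what their promoters share and where they differ. They come from RefSeq on GRCh38.p14, written 5′ to 3′ on the gene's strand in lower case, with each match to TGACNNNGC, the core of the antioxidant response element bound by NFE2L1 and NFE2L2, in capitals. They span chr7:103347393-103347642 (plus strand), chr15:78540155-78540404 (plus strand), chr14:24135944-24136193 (plus strand) and chr14:24146611-24146860 (minus strand).
PSMC2: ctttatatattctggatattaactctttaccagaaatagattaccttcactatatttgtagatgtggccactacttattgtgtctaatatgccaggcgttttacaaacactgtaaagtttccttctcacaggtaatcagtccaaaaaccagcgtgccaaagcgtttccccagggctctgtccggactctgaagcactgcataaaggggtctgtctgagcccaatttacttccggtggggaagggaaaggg
PSMA4: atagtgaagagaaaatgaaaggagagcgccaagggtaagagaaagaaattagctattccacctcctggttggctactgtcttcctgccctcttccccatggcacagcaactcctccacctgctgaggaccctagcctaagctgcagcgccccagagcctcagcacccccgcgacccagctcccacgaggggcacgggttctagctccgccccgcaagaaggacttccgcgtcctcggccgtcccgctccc
PSME1: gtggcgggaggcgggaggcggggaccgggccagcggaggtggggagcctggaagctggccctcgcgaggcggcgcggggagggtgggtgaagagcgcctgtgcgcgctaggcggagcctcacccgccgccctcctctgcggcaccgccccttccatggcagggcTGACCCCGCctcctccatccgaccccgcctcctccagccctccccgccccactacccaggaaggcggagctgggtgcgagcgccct
PSME2: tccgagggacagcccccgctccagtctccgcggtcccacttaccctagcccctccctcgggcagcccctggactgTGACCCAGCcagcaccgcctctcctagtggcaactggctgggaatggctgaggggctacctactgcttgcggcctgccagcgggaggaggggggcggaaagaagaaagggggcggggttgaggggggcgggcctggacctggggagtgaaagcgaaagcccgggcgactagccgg
PSME1 and PSME2 each held 1 match, TGACCCCGC beginning 86 bases and TGACCCAGC beginning 175 bases before the start. No match lay in the windows shown of PSMC2 and PSMA4. PSMA4 has 3 start sites in the table, of which the first is shown, and 1 of the 3 windows held a match. The promoter of PSMC2 held 1 CCAAT box, the motif bound by NF-Y, beginning 31 bases before the start.

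Over the members the same windows were searched on both strands. An entry was found for 37 of the 43 members, and for the 6 with several start sites the first listed was used. TGACNNNGC was present in 10 of 37 member windows (27.0%) and in 11.0% of all 27305 promoters of the table, and CCAAT in 15 of 37 (40.5%) and in 33.0% of all. Of the 14230 promoters whose gene was among those analysed on the array, 11.8% held TGACNNNGC and 34.4% CCAAT. No match of one motif overlapped a match of the other in a member window. Of the members with an entry, 3 of the 7 that fell, 1 of the 2 that rose and 6 of the 28 that did not pass held TGACNNNGC. Those that fell and held it were PSMD3, PSME1 and PSMG1, and PSMD9, which rose, held it at 2 places. A match describes the letters of the window and does not show that a factor binds there.

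**Figure D3:**
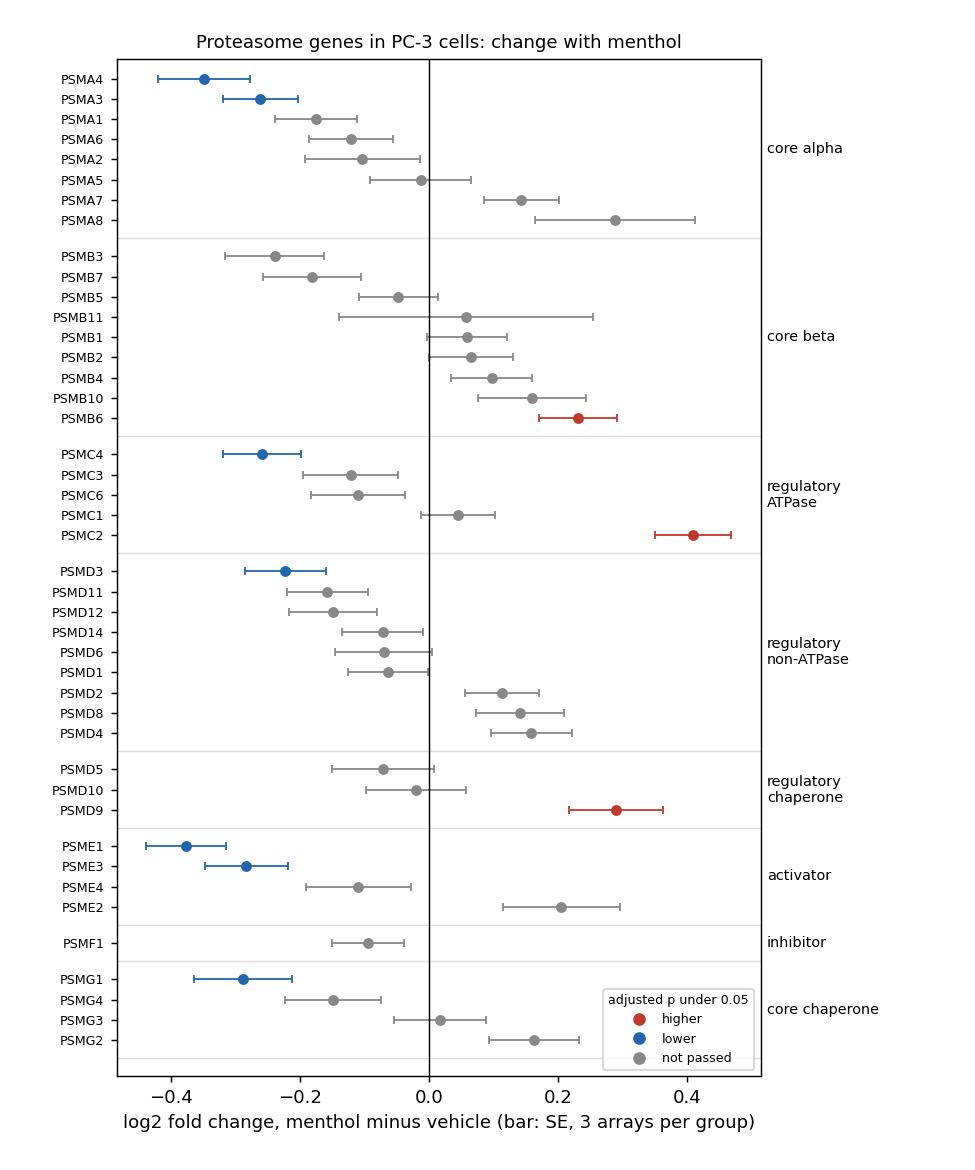
Log2 fold change, menthol minus vehicle (horizontal axis), of the 43 proteasome genes by role, with the moderated SE as bars and 3 arrays per group. Blue marks the 7 genes that fell, red the 3 that rose and grey the 33 that did not pass. Each role with more than 1 member holds values on both sides of 0.

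The counts by role that follow are descriptions of few genes each. They are to be read beside the shares of all genes, 14.5% lower and 14.6% higher. Of the brightest genes 26.9% were lower and 17.2% higher. Among the alpha subunits, which form the outer rings and the gate of the core, 2 of 8 fell and none rose, with a median log2 fold change of -0.11. Besides PSMA4, PSMA3 fell by 0.26 ± 0.06 (limma adjusted p = 0.0129). Its values were 11.33, 11.32 and 11.37 with vehicle and 11.03, 11.10 and 11.10 with menthol, without overlap. The PSMA3 call ended under quantile (limma adjusted p = 0.0588) and cyclic loess normalization (limma adjusted p = 0.0514). The other alpha subunits did not pass: PSMA1 was at -0.18, PSMA6 at -0.12, PSMA2 at -0.10, PSMA5 at -0.013 and PSMA7 at 0.14 on the log2 fold change scale. PSMA7 was higher past the threshold under both further normalizations. PSMA1 was lower past it under 4 of the 17 alternatives, among them both filters on dim genes. PSMA8, the alpha subunit of germ cells, had a signal at the 1.70th percentile of genes and a log2 fold change of 0.29 ± 0.12 that did not pass.

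Among the beta subunits 1 of 9 rose and none fell, with a median of 0.06. PSMB6, which carries the caspase-like site, was at 10.38, 10.40 and 10.43 with vehicle and at 10.67, 10.66 and 10.57 with menthol. It rose by 0.23 ± 0.06 (limma adjusted p = 0.0241), with no overlap between the groups, but its call ended with the omission of any array other than menthol replicate 3. PSMB5, which carries the chymotrypsin-like site and is the main target of bortezomib, was at 9.38, 9.33 and 9.36 with vehicle and at 9.36, 9.33 and 9.24 with menthol. Its groups overlapped and its log2 fold change was -0.05 ± 0.06 (limma adjusted p = 0.605, 95% interval -0.19 to 0.10).

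PSMB7, which carries the trypsin-like site, was at 10.62, 10.68 and 10.79 with vehicle and at 10.47, 10.46 and 10.61 with menthol. Its groups did not overlap, but the log2 fold change of -0.18 ± 0.08 did not pass (limma adjusted p = 0.111). PSMB7 was lower past the threshold under 2 of the 17 alternatives. Within arrays, PSMB6 minus PSMB7 was higher with menthol by 0.41 and PSMB6 minus PSMB5 by 0.28 on the log2 scale (two-sided exact permutation p = 0.1, the smallest possible). These pairs were chosen for their values, so the differences are descriptions. PSMB10, the interferon-inducible counterpart of PSMB7, was at 5.80, 5.89 and 6.03 with vehicle and at 6.18, 5.98 and 6.04 with menthol, and its overlapping groups gave 0.16 ± 0.08 (limma adjusted p = 0.196).

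The non-catalytic beta subunits did not pass, with log2 fold changes of -0.24 for PSMB3, 0.06 for PSMB1, 0.06 for PSMB2 and 0.10 for PSMB4. PSMB3 lay just outside the threshold (limma adjusted p = 0.0501) and was lower past it under 5 of the 17 alternatives. PSMB4 was higher past the threshold under both further normalizations. PSMB11, the thymus-specific subunit, was dim, at the 17.5th percentile of genes, and its value of 0.06 ± 0.20 did not pass.

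The ATPases of the regulatory particle showed both the strongest rise and a fall: of the 5 measured, PSMC2 rose and PSMC4 fell. PSMC4 was at 10.02, 10.06 and 10.11 with vehicle and at 9.84, 9.76 and 9.81 with menthol. It fell by 0.26 ± 0.06 (limma adjusted p = 0.0152) without overlap, and its call ended under quantile normalization (limma adjusted p = 0.0511) and on omission of vehicle array 2 or 3, or of menthol array 2. PSMC1, PSMC3 and PSMC6 did not pass, at 0.05, -0.12 and -0.11. The log2 difference of PSMC2 minus the mean of the other 4 ATPases was 0.60, 0.58 and 0.50 on the vehicle arrays and 1.17, 1.05 and 1.02 on the menthol arrays, a change of 0.52 without overlap (two-sided exact permutation p = 0.1, the smallest possible). PSMC2 was chosen for its values, so this difference is a description and no independent test. PSMC1 has 13 pseudogenes of its name in RefSeq, PSMC6 has 3 and PSMC2 has 2, with the same limit as for PSME2. It also applies to other members, among them PSMA6 with 4 pseudogenes and PSMA2 and PSMD10 with 3 each. A second probeset of PSMC6 gave -0.042 ± 0.06, against -0.11 ± 0.07 for the one kept.

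Of the 9 measured non-ATPase subunits of the regulatory particle 1 fell and none rose. PSMD3, a structural subunit of its lid, was at 10.35, 10.41 and 10.48 with vehicle and at 10.19, 10.22 and 10.17 with menthol. It fell by 0.22 ± 0.06 (limma adjusted p = 0.0314) without overlap. This was the least stable call, lost under 10 of the 17 alternatives, among them the omission of each single array and both further normalizations (limma adjusted p = 0.201 with quantile and 0.114 with cyclic loess).

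The subunits that handle the ubiquitin chain did not pass. PSMD14, the deubiquitinase that removes the chain, was at 10.94, 10.94 and 11.02 with vehicle and at 10.84, 10.90 and 10.95 with menthol. The groups overlapped, and the log2 fold change was -0.07 ± 0.06 (limma adjusted p = 0.429, 95% interval -0.22 to 0.07). PSMD4, a receptor for the chain, was at 8.26, 8.29 and 8.26 with vehicle and at 8.36, 8.45 and 8.49 with menthol. Its groups did not overlap, but its value of 0.16 ± 0.06 passed only under quantile and cyclic loess normalization, the stricter filter on dim genes and the trended prior (limma adjusted p = 0.0962 as deposited). The scaffold subunits PSMD1 and PSMD2 were at -0.06 and 0.11, and PSMD6, PSMD8, PSMD11 and PSMD12 at -0.071, 0.14, -0.16 and -0.15. PSMD2 and PSMD8 were also higher past the threshold under both further normalizations. PSMD11 was lower past it under 2 of the 17 alternatives and PSMD12 under 1.

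Of the 3 members that are chaperones for assembly of the base of the regulatory particle, PSMD9 rose. It was at 7.53, 7.5 and 7.68 with vehicle and at 7.91, 7.89 and 7.79 with menthol, a rise of 0.29 ± 0.07 (limma adjusted p = 0.0211) without overlap. The call ended on omission of vehicle array 1 or 2, or of menthol array 1 or 2. PSMD5 and PSMD10, the latter also known as gankyrin, were at -0.071 and -0.02 and did not pass.

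Of the 4 activators PSME1 and PSME3 fell and none rose. PSME3, which forms the nuclear activator ring on its own, was at 10.34, 10.42 and 10.33 with vehicle and at 10.08, 10.01 and 10.15 with menthol. It fell by 0.28 ± 0.06 (limma adjusted p = 0.0146) without overlap, and its call ended under quantile normalization (limma adjusted p = 0.0694) and without vehicle replicate 2 or menthol replicate 2. PSME4, a single large activator protein, was at -0.11 ± 0.08 and did not pass. The inhibitor PSMF1 was at 10.55, 10.54 and 10.54 with vehicle and at 10.43, 10.45 and 10.47 with menthol. Its groups did not overlap, yet its log2 fold change of -0.09 ± 0.06 did not pass (limma adjusted p = 0.246).

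The chaperones of core assembly act as pairs, PSMG1 with PSMG2 and PSMG3 with PSMG4. PSMG1 was at 8.79, 8.82 and 8.81 with vehicle and at 8.39, 8.53 and 8.63 with menthol. It fell by 0.29 ± 0.08 (limma adjusted p = 0.0251) without overlap, and its call ended with the omission of any array other than menthol replicate 3. Its partner PSMG2 was at 9.0, 8.97 and 9.05 with vehicle and at 9.06, 9.23 and 9.22 with menthol, also without overlap, and its value of 0.16 ± 0.07 did not pass as deposited (limma adjusted p = 0.12). PSMG2 was higher past the threshold under 6 of the 17 alternatives, among them quantile (limma adjusted p = 0.0347) and cyclic loess normalization (limma adjusted p = 0.0327). PSMG2 minus PSMG1 within arrays was 0.21, 0.15 and 0.24 with vehicle and 0.67, 0.70 and 0.58 with menthol, a change of 0.45 without overlap (two-sided exact permutation p = 0.1, the smallest possible). The groups of each gene were already apart in opposite directions, so this p was fixed in advance and the difference is a description. PSMG3 and PSMG4 were at 0.02 and -0.15 and did not pass.

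The upstream windows of PSMG1 and PSMG2 are shown because their values differed in sign and both hold TGACNNNGC, again in capitals. They span chr21:39183452-39183701 (minus strand) and chr18:12658488-12658737 (plus strand) on GRCh38.p14, from RefSeq.
PSMG1: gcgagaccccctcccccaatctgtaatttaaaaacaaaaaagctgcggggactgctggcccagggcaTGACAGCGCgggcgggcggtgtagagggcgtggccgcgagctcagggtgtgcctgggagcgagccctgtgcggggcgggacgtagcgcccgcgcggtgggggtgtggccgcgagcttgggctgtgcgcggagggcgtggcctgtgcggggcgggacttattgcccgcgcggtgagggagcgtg
PSMG2: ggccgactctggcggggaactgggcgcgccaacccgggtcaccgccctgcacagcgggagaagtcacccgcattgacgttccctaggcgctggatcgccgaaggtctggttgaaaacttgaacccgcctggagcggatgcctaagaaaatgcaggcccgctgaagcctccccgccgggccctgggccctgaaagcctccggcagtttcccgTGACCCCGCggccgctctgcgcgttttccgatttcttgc
The match in PSMG1 was TGACAGCGC, beginning 183 bases before the start, and that in PSMG2 was TGACCCCGC, beginning 39 bases before it. PSMG2 has 2 annotated start sites, of which the first is shown, and 1 of the 2 windows held a match. PSMG2, with a positive log2 fold change that did not pass as deposited, carried the same 9 letters as PSME1, which fell. Any link between these letters and the direction of change was not tested.

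**Figure D4:**
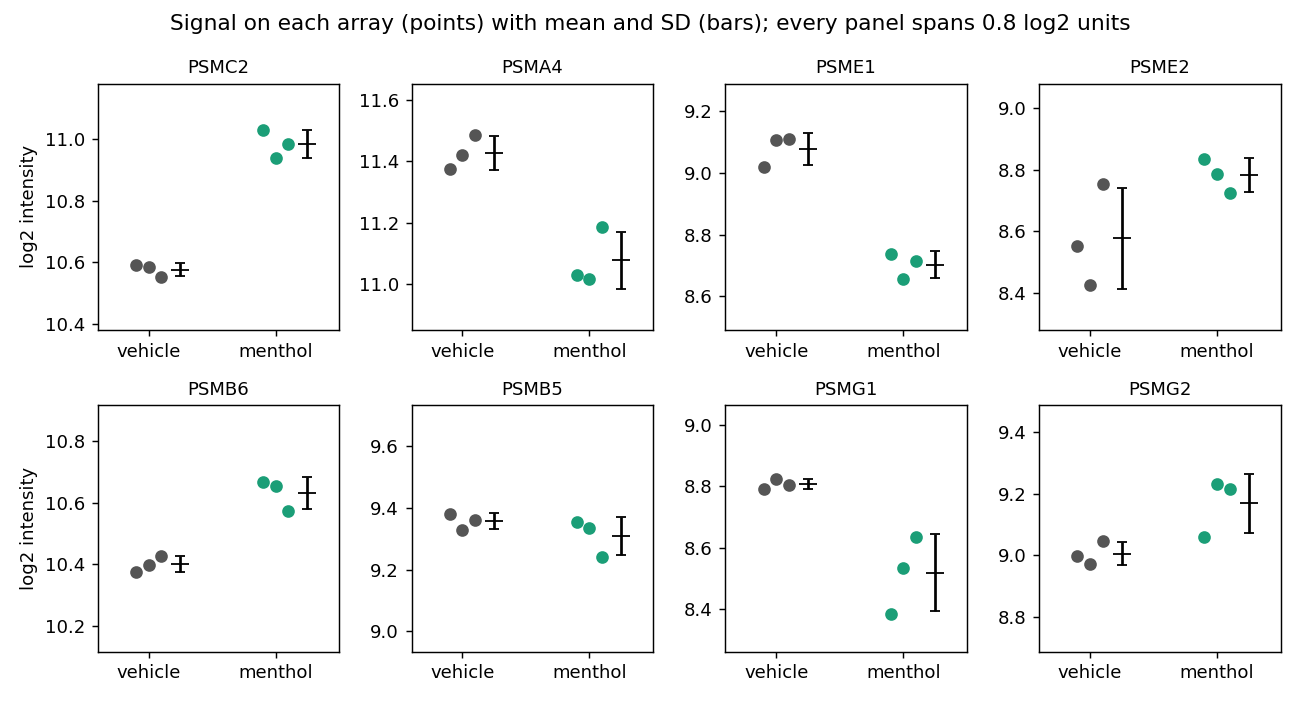
Log2 intensity on each of the 6 arrays (points) for 8 proteasome genes, with the mean and SD of each group as bars; every panel spans 0.8 log2 units around the gene's own mean. PSMC2, PSMA4, PSME1, PSMB6, PSMG1 and PSMG2 show no overlap between the groups, and PSME2 and PSMB5 do.

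Across the members, the groups did not overlap in 21 of 43 genes (48.8%), 14 lower and 7 higher with menthol. Over all genes this held for 45.3%, with 21.7% lower and 23.5% higher, and among the brightest genes for 66.5%. Of the 21, 11 did not pass the test. The member nearest to the threshold on the passing side was PSMD3, and on the other side PSMB3.

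Genes around the proteasome were taken from a list of 49, of which 42 were measured. Of these 8 fell (19.0%) and 4 rose (9.52%), with a median log2 fold change of -0.09. Over all genes 14.5% were lower and 14.6% higher, with a median of 0.03. Of the 42 genes, 34 were among the brightest genes, of which 26.9% were lower and 17.2% higher, with a median of -0.05. The counts by group that follow are descriptions, to be read beside these shares. The immunoproteasome subunits did not pass. PSMB8, which replaces PSMB5, was at 8.51, 8.55 and 8.72 with vehicle and at 8.36, 8.46 and 8.34 with menthol, without overlap (-0.21 ± 0.08, limma adjusted p = 0.0765). PSMB9, which replaces PSMB6, was at 6.96, 6.89 and 6.96 with vehicle and at 6.96, 7.07 and 7.0 with menthol, with overlap (0.07 ± 0.06, limma adjusted p = 0.431).

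Of 7 further subunits and assembly factors SEM1, a small lid subunit, rose by 0.22 ± 0.06 (limma adjusted p = 0.0233). It was at 9.22, 9.23 and 9.16 with vehicle and at 9.44, 9.44 and 9.40 with menthol, without overlap, and its call ended without any one vehicle array or menthol replicate 2. The ubiquitin receptor ADRM1 and the core maturation factor POMP did not pass, at -0.21 ± 0.07 and -0.20 ± 0.07. Of 7 associated ubiquitin ligases and deubiquitinases, the ligase HUWE1 fell by 0.32 ± 0.07 (limma adjusted p = 0.0132). The deubiquitinase UCHL5 fell by 0.30 ± 0.09 (limma adjusted p = 0.0434), a call lost under 8 alternatives, among them both further normalizations.

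The largest changes on the list were outside the proteasome itself, among the 12 shuttle, segregase and localization factors. AKIRIN2, which brings proteasomes into the nucleus, was at 8.32, 8.29 and 8.42 with vehicle and at 7.62, 7.63 and 7.72 with menthol. It fell by 0.68 ± 0.07, or 1.61-fold (limma adjusted p = 0.000349), without overlap. ZFAND2A, a stress-inducible proteasome-binding protein, was at 8.07, 7.83 and 7.88 with vehicle and at 8.35, 8.61 and 8.54 with menthol, a rise of 0.57 ± 0.09 (limma adjusted p = 0.00377) without overlap. Both calls held under every alternative run. UBQLN4, a shuttle for ubiquitylated proteins, fell by 0.37 ± 0.06 (limma adjusted p = 0.00395), a call lost under 1 of 16 alternatives, the mean of its probesets. UFD1, a cofactor of the segregase VCP, rose by 0.23 ± 0.07 (limma adjusted p = 0.0442), a call lost under 8 alternatives, among them equal array medians. FAF1, which also binds VCP, was the other gene of this group to fall, by 0.22 ± 0.06 (limma adjusted p = 0.022), a call lost under 6 alternatives, among them the omission of any one vehicle array. VCP itself was at -0.09 and did not pass.

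Among 11 measured genes of transcriptional control 2 fell and 1 rose. NFE2L1, the activator of proteasome genes, was at 10.29, 10.26 and 10.25 with vehicle and at 9.93, 9.95 and 10.07 with menthol. It fell by 0.29 ± 0.06 (limma adjusted p = 0.0135) without overlap, and its call ended without vehicle replicate 1. Its activity depends on processing of the protein, which the array does not measure. NFE2L2 was at 0.02 ± 0.07 and did not pass. NFYB, a subunit of NF-Y, was at 7.73, 7.80 and 8.01 with vehicle and at 7.33, 7.30 and 7.47 with menthol, and fell by 0.48 ± 0.09 (limma adjusted p = 0.00625), a call held under every alternative. The small Maf gene MAFF, a partner of NFE2L1 in DNA binding, rose by 0.32 ± 0.10 (limma adjusted p = 0.0388), a call lost under 6 of 16 alternatives, among them the omission of menthol array 2 or 3 or of vehicle array 2 or 3. Of 3 measured genes of ubiquitin and its activating enzymes, UBA1, the main activating enzyme, fell by 0.24 ± 0.06 (limma adjusted p = 0.0166). The UBA1 call was lost under 7 of 17 alternatives, among them both further normalizations and the omission of any one vehicle array or of menthol replicate 2.

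**Figure D5:**
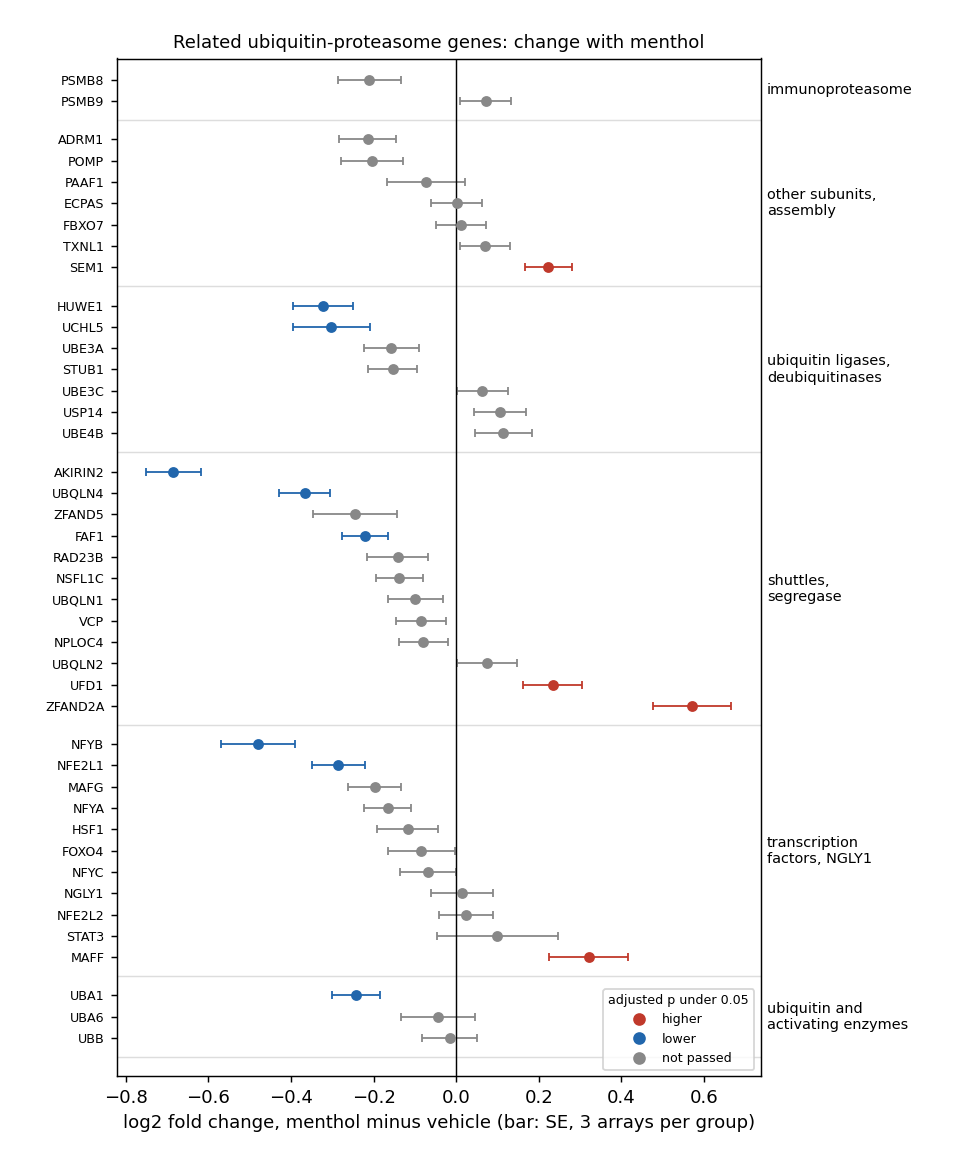
Log2 fold change, menthol minus vehicle (horizontal axis), of the 42 measured genes around the proteasome by role, with the moderated SE as bars and 3 arrays per group. AKIRIN2 at -0.68, NFYB at -0.48 and ZFAND2A at 0.57 lie outside the range of the proteasome genes, which ended at -0.38 and 0.41.

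As a check of the labelled cells, the epithelial genes KRT8, KRT18, KRT19, EPCAM and CDH1 had signals between the 87.6th and the 99.0th percentile of genes, and the luminal gene KLK3 lay at the 32.2nd. The epithelial markers moved with the treatment by more than any proteasome gene: 5 of 5 rose, by 0.56 for KRT8 to 0.97 for KRT19 on the log2 scale. Their summed intensity was 6213 to 6570 units with vehicle and 10519 to 10856 with menthol. Of 3 leukocyte markers CD68, at the 87.2nd percentile, rose by 0.29, while PTPRC and CD3E, at the 2.96th and the 15.7th, did not pass. Their summed intensity was 488 to 531 with vehicle and 594 to 633 with menthol. Of 3 fibroblast markers COL3A1, at the 41.6th percentile, fell by 0.55, and COL1A1, at the 70.7th, and PDGFRB, at the 30.2nd, did not pass. Their sum was 342 to 359 with vehicle and 281 to 308 with menthol. Of 3 endothelial markers PECAM1, at the 31.4th percentile, rose by 0.60, and VWF and CDH5, at the 19.1st and the 21.0th, did not pass. Their sum was 69.4 to 73.2 with vehicle and 83.5 to 90.6 with menthol. The part of these shifts in the proteasome values was not tested. The median SD between arrays of a group was 0.05 with vehicle and 0.07 with menthol over the members, on the log2 scale. The number of arrays limits the precision, and a lower signal in bulk RNA cannot tell fewer expressing cells from less RNA per cell.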

How the data were processed

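Total RNA of PC-3 cells was hybridised to 6 Affymetrix arrays. The authors deposited 1 table of linear intensity values for 32321 probesets, and the submitters' processing notes name RMA, which combines background correction, quantile normalization and probeset summary; its software and version are not stated. Values ran from 1.57 to 14835, so log2 was taken. The platform annotation gave 19158 probesets with a single symbol, and the brightest probeset per gene left 18404 genes. The menthol and vehicle groups were fitted in R 4.3.3 with lmFit and eBayes of limma 3.58.1, two-sided, with Benjamini-Hochberg adjustment over all genes; errors are moderated SE. The fit was tested on simulated data. Members, role groups, the related list and motifs were chosen with earlier results of these data known. Every member is named; values on each array are given for up to 4 called members per role, for the catalytic subunits, PSMD14, PSMD4 and PSMF1, and, chosen after the values were seen, for PSME2 and PSMG2. Related genes named are up to 4 called per group, with PSMB8, PSMB9, ADRM1, SEM1, POMP and NFE2L1 in any case; FAF1, NFE2L2 and VCP were added after the values were seen. Alternatives were a block on replicate number, array weights, other normalizations, filters on dim genes (the looser leaves out those under the lower quartile of mean signal, the stricter those under its median), other probeset rules, a trended and robust variance prior (statmod 1.5.0), a threshold of 0.01 and the omission of single arrays. Permutation tests and figures used Python 3.11.15, scipy 1.17.1 and matplotlib 3.10.9.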

Additional observations from a re-analysis of the deposited data

How the results depend on the processing

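As deposited, 7 members were lower and 3 higher, and 8 related genes were lower and 4 higher. The median over the members reversed from -0.071 to 0.021 with quantile and 0.0076 with cyclic loess normalization, where 9 and 9 members were higher and, with quantile, 3 lower; the cause was not tested. The looser filter on dim genes gave 13 related genes lower, against 21.8% of all genes. The stricter filter gave 7 members higher, 11 members lower and 17 related genes lower, with fewer genes tested; under it 23.3% of all genes were higher and 31.0% lower. The trended robust prior gave 9 members higher, 12 members lower and 17 related genes lower, against 16.1% higher and 17.6% lower of all genes. At a threshold of 0.01, 1 member was higher and 2 lower, and 1 related gene was higher and 3 lower, against 7.51% and 7.93% of all genes. On omission of single arrays, between 1 and 4 members were higher and between 3 and 6 lower, and between 1 and 3 related genes were higher and between 4 and 8 lower. The calls over all genes also became fewer, with 10.6% to 13.1% higher and 10.1% to 13.4% lower. Omitting vehicle array 2 or menthol array 2 left 3 members lower, and omitting vehicle array 3 left 4. Omitting vehicle array 1, vehicle array 2 or menthol array 2 left 1 member higher. Related genes higher numbered 1 on omission of vehicle array 2 or 3 or of menthol array 2, and 2 on omission of vehicle array 1; related genes lower numbered 4 on omission of vehicle array 1, and 5 on omission of vehicle array 2 or 3 or of menthol array 2. With the replicate number as a block, 1 member and 2 related genes were higher, against 13.5% of all genes. Same-numbered arrays correlated at 0.0065, -0.0072 and 0.091 in their deviations from the group means. The last, for replicate 3, was the largest between any vehicle and any menthol array, and at least 1 array correlated best with another number. Whether same-numbered arrays share more than a number was not tested. Of the 33 members that did not pass, 13 passed under at least 1 of the 17 alternatives and 20 under none of them. Of the 13, PSMA1, PSMB3, PSMB7, PSMD11 and PSMD12 were lower there, and PSMA7, PSMA8, PSMB4, PSMD2, PSMD4, PSMD8, PSME2 and PSMG2 higher.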
